A study of Bos taurus with 20 samples.

Results

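Experimental Escherichia coli mastitis was described 24 h after challenge by comparing the challenged, not treated (CNT) gland with the not challenged (NC) gland of the same cow, gene by gene, in 2 mid-lactating Holstein Friesian cows. The 4 arrays compared were all the CNT and NC arrays that the series held at 24 h, out of 8 arrays at 24 h and 20 in the whole series. They were chosen by the group, time and cow number in the labels, and no measured value entered the choice. CNT glands (left front) received 100 CFU of the mastitis strain ECC-Z through the teat canal and no drug. NC glands (right front) received neither bacteria nor drug. The rear glands of the same cows were challenged as well and were infused with 300 mg of the cephalosporin cefapirin (CF), in 1 of them together with 20 mg of the glucocorticoid prednisolone (CFPD). An NC gland thus belonged to a cow with 3 challenged glands, and side and challenge cannot be told apart. A cow's age and parity were not given in the sources used here. The cows are called A (cow8620 in the labels) and B (cow8609), and wherever a pair of values is given for a group, that of cow A comes before that of cow B.

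E. coli that enters the udder through the teat sheds lipopolysaccharide, which is bound by the LPS-binding protein (LBP), passed to CD14 and sensed by TLR4 on epithelial cells and macrophages. Signalling through NF-kB then induces cytokines and chemokines, and neutrophils leave the blood for the tissue and the milk. The mammary epithelium takes part in this defence by making acute phase and antimicrobial proteins of its own, and milk secretion declines in inflamed glands.

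Mammary tissue RNA was measured on the Affymetrix Bovine Genome Array, and each level below is a log2 signal from robust multi-array averaging (RMA), so that a difference of 1 is a 2-fold change. Of 13004 probe sets tested, 211 (1.62%) were higher and 100 (0.769%) were lower in CNT than in NC glands. A probe set is called here when its Benjamini-Hochberg adjusted p from limma was under 0.05 and its difference was at least 1. The fit behind these calls held no term for the cow, so its SE and adjusted p take the glands as unpaired. When the cow was added as a block, 518 (3.98%) were higher and 275 (2.11%) were lower, the 311 calls above among them. Counted with 1 probe set per gene symbol, the one with the highest mean, 122 of 6720 genes (1.82%) were higher and 45 (0.67%) lower without the block, and 306 (4.55%) and 125 (1.86%) with it. Both CNT values lay above both NC values in 2040 of these genes (30.4%) and below them in 1541 (22.9%). The median difference over all genes was 0.04. These shares and this median are the level against which the counts and medians of the gene groups below may be read. More probe sets rose strongly than fell strongly, since 83 probe sets rose by at least 2 and 41 by at least 3, while 19 fell by at least 2.

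Genes were grouped in 44 lists by their known roles, 1121 genes in all. Of these, 657 had a tested probe set, and 56 rose and 19 fell. Another 208 had only probe sets that exceeded the array median on fewer than 2 of the 8 arrays at 24 h and were not tested, and the rest had no probe set with a single matching symbol. A gene that is low in NC glands can pass this filter through the challenged glands alone, so that the counts and medians of the lists describe the genes that passed and support nothing further.

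**Figure D1:**
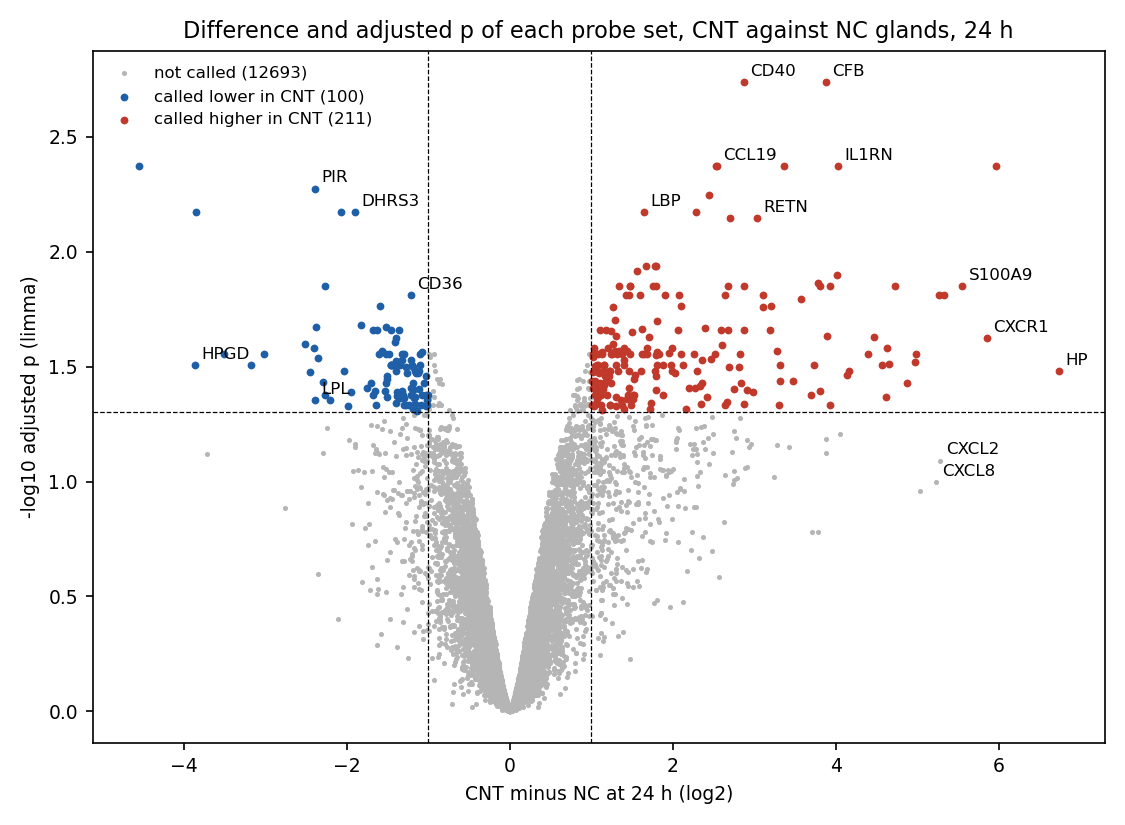
Difference between CNT and NC glands at 24 h (x axis, log2) against −log10 of the adjusted p from limma (y axis) for each of the 13004 probe sets tested. Red points are the 211 called higher and blue points the 100 called lower in CNT glands, and dashed lines mark the thresholds. CXCL2 and CXCL8 lie far to the right, at 5.27 and 5.23, but under the line of the adjusted p. The fit shown holds no term for the cow, and its spread includes the CF and CFPD glands.

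The 311 calls had the same sign in both cows, and their CNT and NC values did not overlap. The thresholds of a call favour such probe sets. Of all genes, both CNT values lay above both NC values in 30.4% and below them in 22.9%. Here and below, fits with an array left out used the other arrays of 24 h. Fits with a cow left out used all arrays of the other cows, at 24 h and 48 h. In the latter each 24 h group held a single array, and the residual spread came from the 48 h glands alone. The count of calls rested on single arrays. It was 65 and 483 with the CNT array of cow A or of cow B left out, 11 and 3 with the NC array of cow A or of cow B left out, and 19 and 179 with cow A or cow B left out. The 3 that were called without the NC gland of cow B were CFB, CD40 and MPZL2. Those called without the NC gland of cow A included CFB, CD40, IL1RN, CCL19, UGDH and PIR. CD40 was chosen after its values were seen, as the only probe set called in all 6 of these fits, and MPZL2 and UGDH were likewise named after the fits. CD40, the receptor through which T cells activate antigen-presenting cells, had levels of 8.83 and 8.67 in CNT glands and 5.96 and 5.81 in NC glands, a rise of 2.87 (SE 0.15, adjusted p = 0.00183), while its other probe set differed by 0.43 (adjusted p = 0.202). Of the listed genes by their list probe set, only CCL19, IL1RN and CFB were called without the NC gland of cow A, and only CFB without that of cow B.

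Control probes near the 3′ and 5′ ends of 3 transcripts were read as a sign of RNA quality. For beta-actin the 3′ minus 5′ difference was 2.14 to 2.32 on CNT arrays and 1.45 to 1.54 on NC arrays, for GAPDH it was 0.904 to 1.13 on CNT arrays and 1.23 to 1.79 on NC arrays, and for EF1a −1.58 to −1.28 on CNT arrays and −1.32 to −1.08 on NC arrays. The part of these in the differences below was not tested.

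Of 14 neutrophil markers tested, 7 rose and 0 fell. In all 14 both CNT glands lay above both NC glands, against 30.4% of all genes. These 14 are the markers that passed the filter, which a gene can pass through the challenged glands alone. With the cow as a block, 12 rose. The median difference was 2.92, with 3.60 in cow A and 1.58 in cow B, and the mean level over the list was 11.69 and 10.05 in CNT glands against 8.04 and 7.84 in NC glands. CXCR1, the receptor through which neutrophils follow CXCL8, had levels of 12.56 and 9.72 in CNT glands and 5.58 and 5.01 in NC glands, a rise of 5.85 (SE 0.79, adjusted p = 0.0238). The calgranulin S100A12 had 13.68 and 11.26 in CNT glands and 8.08 and 6.93 in NC glands (rise of 4.96, adjusted p = 0.0301), and S100A8, which forms calprotectin with S100A9, had 14.09 and 12.57 in CNT glands and 9.09 and 8.12 in NC glands (rise of 4.73, adjusted p = 0.0141). In each of these genes the CNT gland of cow A was the highest of the 4 glands. S100A9 rose by 5.55 on its more responsive probe set (adjusted p = 0.0141) and by 3.19 on the more intense one (adjusted p = 0.022). RETN, which encodes resistin, an inflammatory protein of leukocytes in humans, had 9.30 and 8.44 in CNT glands and 5.83 and 5.83 in NC glands (rise of 3.04, SE 0.27, adjusted p = 0.00716). The marker with the smallest difference was LTF, which encodes lactoferrin and is also made by the mammary epithelium, with 14.97 and 14.78 in CNT glands and 14.68 and 14.29 in NC glands (adjusted p = 0.322), and another of its probe sets rose by 1.44 (adjusted p = 0.0437). The list held 5 rises with the CNT array of cow A left out and 13 with that of cow B left out, 0 and 0 with their NC arrays left out, and 2 and 11 with cow A or cow B left out. Of 34 listed markers, 24 had a probe set, and 10 of these did not pass the filter. They included the granule genes MPO and ELANE, which neutrophil precursors transcribe in the bone marrow, with 6.29 and 6.08 in CNT glands and 6.46 and 6.51 in NC glands for MPO and 5.41 and 5.08 in CNT glands and 5.03 and 5.27 in NC glands for ELANE. MMP9, the gelatinase of neutrophil granules, was not tested either and had 8.53 and 6.62 in CNT glands and 5.74 and 6.22 in NC glands, so that only the CNT gland of cow A stood above the median of the array. Among the markers not tested, CATHL2, CATHL5, MPO and ALOX5 had both CNT values below both NC values, and only MMP9 had both above.

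The phagocyte NADPH oxidase makes superoxide in neutrophils and macrophages. Of its 6 subunits tested, 2 rose, and with the cow as a block 4 did. The cytosolic subunit NCF1 had 11.38 and 9.01 in CNT glands and 5.90 and 5.71 in NC glands (rise of 4.39, SE 0.65, adjusted p = 0.0278), and NCF4 had 13.00 and 12.86 in CNT glands and 10.98 and 11.31 in NC glands (rise of 1.79, SE 0.18, adjusted p = 0.0116). The membrane subunits CYBB and CYBA differed by 1.63 (adjusted p = 0.0766) and 1.65 (adjusted p = 0.106), and passed with the block (adjusted p = 0.0345 and 0.0242). RAC1, a GTPase used by every cell type, differed by 0.05 (adjusted p = 0.894).

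Genes expressed in all leukocytes gave 1 call, and more with the cow as a block. Of 17 pan-leukocyte genes, 1 rose and 11 did with the cow as a block. In 14 both CNT glands lay above both NC glands, against 30.4% of all genes. The median difference was 1.56 (2.03 in cow A and 1.05 in cow B). PLEK, which encodes the protein kinase C substrate pleckstrin, was the called member, with 10.68 and 8.56 in CNT glands and 5.60 and 5.33 in NC glands (rise of 4.16, SE 0.68, adjusted p = 0.0332). CD48, an adhesion protein of leukocytes, had 12.45 and 9.83 in CNT glands and 8.38 and 8.10 in NC glands (adjusted p = 0.0861, 0.0322 with the block). PTPRC, which encodes the leukocyte common antigen CD45, had a difference of 1.25 (adjusted p = 0.249). In these genes the 2 CNT glands differed from each other by more than the 2 NC glands did. In tissue RNA, more cells of a type and more RNA per cell cannot be told apart.

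Markers of other leukocytes gave few calls. Of 14 monocyte and macrophage markers, 0 were called, and 4 rose with the cow as a block, among them CD68, a lysosomal protein of phagocytes, with 12.41 and 9.69 in CNT glands and 8.11 and 7.14 in NC glands (adjusted p = 0.0709, 0.017 with the block). The complement subunit genes C1QA, C1QB and C1QC, which tissue macrophages express strongly, differed by 0.26, 0.09 and 0.26, the smallest adjusted p being 0.601. Of 12 T cell and NK cell markers, 1 rose. This was CD69, an early activation marker that other leukocytes also carry, with 9.40 and 8.38 in CNT glands and 6.89 and 6.21 in NC glands (rise of 2.34, SE 0.41, adjusted p = 0.0386). The T cell receptor chains CD3D, CD3E and CD3G differed by −0.04, −0.22 and −0.13, and CD4 by −0.38 (adjusted p = 0.304). The 3 B cell and plasma cell markers tested, IGHM, JCHAIN and PRDM1, differed by −0.01, −0.61 and 0.05, and none was called.

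**Figure D2:**
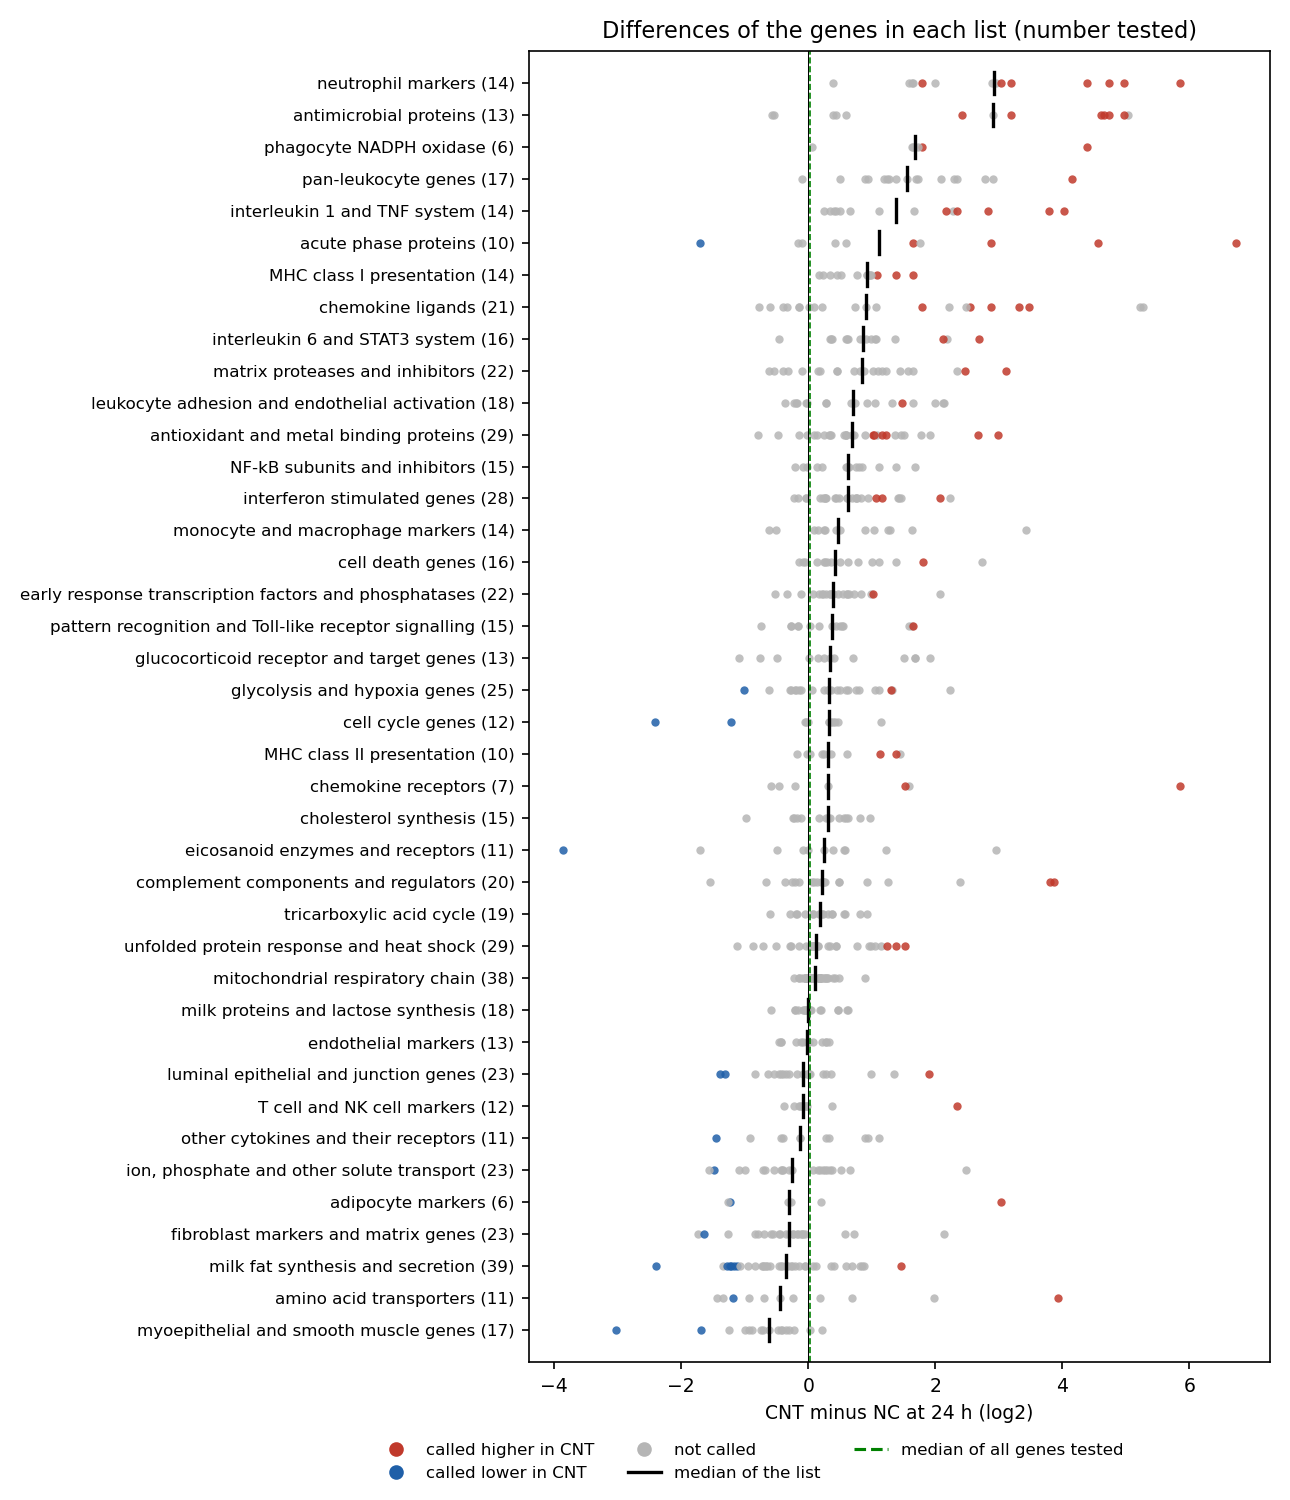
Difference between CNT and NC glands at 24 h (x axis, log2) for each tested gene of 40 gene lists (rows, number tested in brackets), 1 probe set per gene. Red and blue points are genes called higher and lower in CNT glands, grey points are not called, black ticks are the medians of the lists and the dashed line is the median over all 6720 genes. Neutrophil markers head the order with a median of 2.92, and myoepithelial genes end it at −0.62.

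Acute phase proteins, which the liver and the mammary epithelium make during inflammation, included the largest rise of all. Of 10 tested, 4 rose and 1 fell, and the median difference was 1.12. Haptoglobin (HP), which binds free haemoglobin, had levels of 13.43 and 14.06 in CNT glands and 6.48 and 7.55 in NC glands, a rise of 6.73 (SE 1.10, adjusted p = 0.0331). SAA3, the serum amyloid A of the mammary gland, had 15.24 and 15.18 in CNT glands and 10.39 and 10.90 in NC glands (rise of 4.56, SE 0.72, adjusted p = 0.0312), and its CNT levels were close to the highest value on the arrays, 15.6. LBP was at 13.98 and 13.92 in CNT glands and already at 12.33 and 12.27 in NC glands (rise of 1.65, SE 0.14, adjusted p = 0.00671). The SD between cows was 0.04 in CNT and 0.04 in NC glands for LBP, and 0.44 and 0.76 for HP. Each SE also takes in the spread of the CF and CFPD glands. PTX3, a long pentraxin that opsonizes microbes, had 11.54 and 11.82 in CNT glands and 9.08 and 8.54 in NC glands (rise of 2.87, adjusted p = 0.022). The member that fell was FGL1, a fibrinogen-like protein, with 6.58 and 7.15 in CNT glands and 8.39 and 8.75 in NC glands (fell by 1.70, SE 0.29, adjusted p = 0.0372). Ceruloplasmin (CP) differed by 1.75 (adjusted p = 0.0656) and passed with the cow as a block (adjusted p = 0.00981). The fibrinogen gene FGG and the haem-binding HPX differed by 0.42 and −0.16 (adjusted p = 0.389 and 0.653). HP and SAA3 were called in none of the 6 fits that left out 1 array or 1 cow, where their adjusted p from limma ranged from 0.0803 to 0.426 and from 0.0679 to 0.776. LBP was called in 2 of these fits and PTX3 and FGL1 in 1.

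Of 13 antimicrobial proteins tested, 6 rose and 0 fell, and 8 rose with the cow as a block. Those called were 3 calgranulins and 3 defensins, and the list had a median difference of 2.91 (2.89 in cow A, 2.65 in cow B). The list shares its 3 calgranulins and LTF with the neutrophil markers, whose mean levels are given above. The beta-defensin gene annotated DEFB4A had 12.55 and 10.11 in CNT glands and 7.42 and 6.01 in NC glands (rise of 4.61, SE 0.85, adjusted p = 0.0428) and rose by 5.26 on its other called probe set (adjusted p = 0.0154), and DEFB10 had 11.23 and 8.58 in CNT glands and 5.28 and 5.24 in NC glands (rise of 4.65, adjusted p = 0.0309). The enteric beta-defensin EBD rose by 2.42 (adjusted p = 0.0428). Lingual antimicrobial peptide (LAP) had 14.02 and 11.57 in CNT glands and 8.59 and 6.94 in NC glands, so that cow A was higher in both glands. Its difference of 5.03 did not pass (adjusted p = 0.11) and passed with the cow as a block (adjusted p = 0.0014). The defensin genes are near-identical in part, so that their probe sets may share signal. The lysozyme LYZ2 differed by 2.91 (adjusted p = 0.0659, 0.00934 with the block). Lactoperoxidase (LPO), secreted by the epithelium, and PIGR, which carries IgA into milk, had differences of −0.54 and −0.56 (adjusted p = 0.274 and 0.162). The list held 3 rises with the CNT array of cow A left out and 6 with that of cow B left out, 0 and 0 with their NC arrays left out, and 2 and 4 with cow A or cow B left out. The cathelicidin CATHL2, also transcribed in neutrophil precursors, was too low to be tested, with 4.24 and 4.10 in CNT glands and 4.37 and 4.44 in NC glands.

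**Figure D3:**
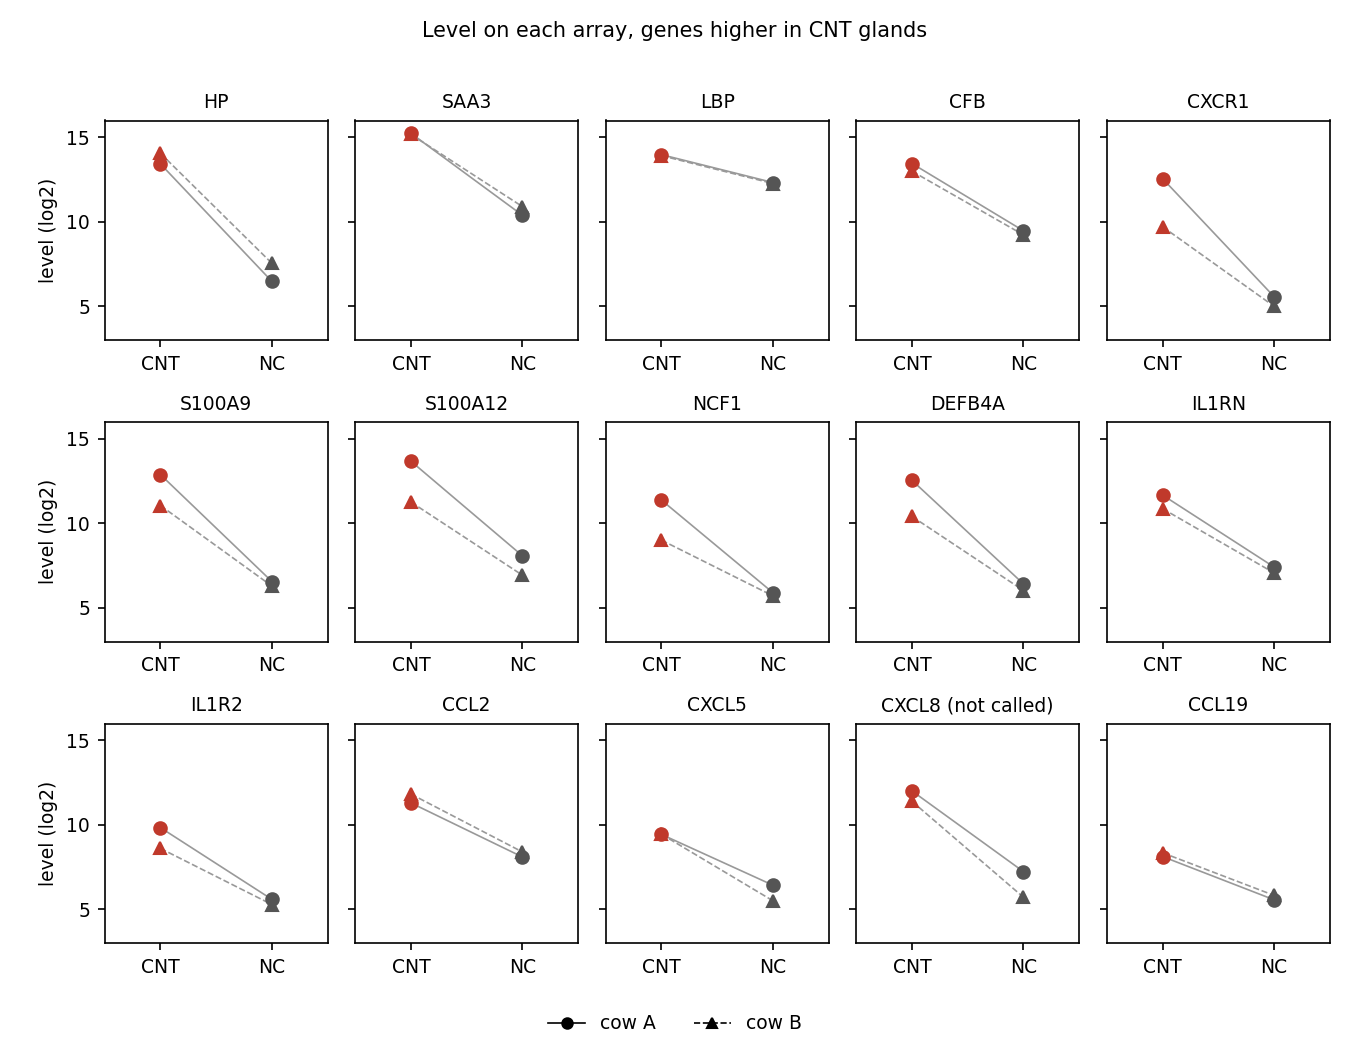
Log2 level (y axis) of 15 genes in the CNT gland (left, red) and the NC gland (right, grey) of cow A (circles, solid lines) and cow B (triangles, dashed lines), with S100A9 and DEFB4A by their probe set of the largest change. In every gene both CNT points lie above the NC point of the same cow. In CXCR1, S100A9, S100A12, NCF1 and DEFB4A the CNT gland of cow A is the highest point, whereas HP and CCL2 are highest in cow B.

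Chemokines guide leukocytes into inflamed tissue. Of 21 chemokine ligands tested, 5 rose and 0 fell, and 7 rose with the cow as a block. CCL2, which draws monocytes, had 11.30 and 11.82 in CNT glands and 8.10 and 8.40 in NC glands (rise of 3.31, SE 0.56, adjusted p = 0.0364). CCL4 and CCL5, which draw monocytes and T cells, rose by 2.88 (adjusted p = 0.0141) and 1.79 (adjusted p = 0.0141). CCL19, which guides dendritic cells and T cells through CCR7, had 8.13 and 8.35 in CNT glands and 5.57 and 5.83 in NC glands (rise of 2.54, SE 0.19, adjusted p = 0.00424). CXCL5, a neutrophil attractant, had 9.44 and 9.45 in CNT glands and 6.43 and 5.51 in NC glands (rise of 3.47, adjusted p = 0.0364). The neutrophil attractants CXCL2 and CXCL8 showed larger differences that did not pass. CXCL2 had 11.12 and 10.57 in CNT glands and 5.54 and 5.60 in NC glands, a difference of 5.27 (SE 1.30, adjusted p = 0.0811), and CXCL8 had 12.01 and 11.39 in CNT glands and 7.23 and 5.71 in NC glands, a difference of 5.23 (SE 1.42, adjusted p = 0.101). Both passed with the cow as a block (adjusted p = 0.0273 and 0.0479). The SE of CXCL2 and CXCL8 takes in the spread of the CF and CFPD glands, not that of the 4 glands alone. The probe sets of a gene disagreed for CCL3, which differed by 1.07 on its more intense probe set (adjusted p = 0.172) and rose by 4.63 on another (adjusted p = 0.0262). The constitutive chemokines CXCL12, CXCL14 and CCL28 differed by −0.40, −0.60 and 0.01 (smallest adjusted p = 0.296). The list held 3 rises with the CNT array of cow A left out and 3 with that of cow B left out, 1 and 0 with their NC arrays left out, and 0 and 4 with cow A or cow B left out.

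Of 7 chemokine receptors, 2 rose. Besides CXCR1 this was ACKR1, the decoy receptor of venules and red cells, with 8.18 and 9.08 in CNT glands and 7.09 and 7.14 in NC glands (rise of 1.52, SE 0.28, adjusted p = 0.0419). CXCR4, the CXCL12 receptor of many leukocytes, had 10.14 and 8.54 in CNT glands and 7.52 and 7.98 in NC glands (adjusted p = 0.145), and CXCR3 of T cells differed by −0.21 (adjusted p = 0.479).

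Within the interleukin 1 and tumour necrosis factor (TNF) system the called genes included the antagonist and the decoy receptor of interleukin 1. Of 14 members tested, 5 rose, none fell, and 7 rose with the block. The receptor antagonist IL1RN had 11.68 and 10.87 in CNT glands and 7.42 and 7.07 in NC glands (rise of 4.03, SE 0.28, adjusted p = 0.00424), and the decoy receptor IL1R2 had 9.84 and 8.61 in CNT glands and 5.59 and 5.29 in NC glands (rise of 3.79, SE 0.39, adjusted p = 0.0137). The signalling receptor IL1R1 had 11.04 and 11.32 in CNT glands and 10.59 and 10.76 in NC glands (adjusted p = 0.31). LTB, a TNF family ligand of lymphotoxin signalling, rose by 2.83 (adjusted p = 0.0372), PYCARD, the adaptor of inflammasomes, by 2.16 (adjusted p = 0.0484) and TNFAIP6, a TNF-induced hyaluronan-binding protein, by 2.34 (adjusted p = 0.0459). The list held 3 rises with the CNT array of cow A left out and 6 with that of cow B left out, 1 and 0 with their NC arrays left out, and 1 and 4 with cow A or cow B left out. The ligands IL1B and TNF did not pass the filter and were not tested. IL1B had 8.65 and 6.88 in CNT glands and 5.98 and 6.43 in NC glands, and TNF had 6.23 and 6.53 in CNT glands and 5.90 and 6.04 in NC glands. IL1RN, IL1R2 and PYCARD are expressed by neutrophils as well, whose markers had a mean level that was higher by 3.65 and 2.22 in the same CNT glands, and the part of these cells in the rises was not tested.

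Of 16 genes of the interleukin 6 and STAT3 system, 2 rose and 4 did with the block. These were SOCS3, the feedback inhibitor of STAT3 signalling, with 9.03 and 7.88 in CNT glands and 5.86 and 5.66 in NC glands (rise of 2.69, SE 0.43, adjusted p = 0.0317), and the receptor IL6R, which rose by 2.13 (adjusted p = 0.0312). IL6 itself had 6.32 and 7.44 in CNT glands and 4.61 and 4.79 in NC glands (adjusted p = 0.244), so that its levels were below the array medians of 7.13 to 7.16 in 3 of the 4 glands. STAT3 differed by 0.62 (adjusted p = 0.293). Among 11 other cytokines and receptors the call was a fall, that of the activin antagonist follistatin (FST), with 9.17 and 9.62 in CNT glands and 10.96 and 10.73 in NC glands (fell by 1.45, SE 0.23, adjusted p = 0.0312).

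Lists of sensing and signalling genes each held at most 1 call without the cow as a block. Of all genes, 1.82% rose without the block and 4.55% with it. Of 15 genes of pattern recognition and Toll-like receptor signalling, LBP alone was called, and 3 rose with the cow as a block. TLR2, the receptor of bacterial lipopeptides, had 12.84 and 12.28 in CNT glands and 11.28 and 10.66 in NC glands (adjusted p = 0.0653, 0.0254 with the block), and CD14 had 13.02 and 12.21 in CNT glands and 11.50 and 10.48 in NC glands (adjusted p = 0.0879, 0.00793 with the block). TLR4 had 10.02 and 9.17 in CNT glands and 9.24 and 8.86 in NC glands (adjusted p = 0.377), and MYD88 differed by 0.53 (adjusted p = 0.133). Of 15 NF-kB subunits and inhibitors none was called without the block, and 1 with it. The inhibitor NFKBIA had 13.10 and 12.33 in CNT glands and 11.52 and 10.54 in NC glands (adjusted p = 0.24), and the subunits NFKB1, NFKB2 and RELA differed by 0.75, 0.85 and −0.21. Both CNT values lay above both NC values in 11 of these 15 genes, against 30.4% of all genes. Of 22 early response transcription factors and phosphatases, 1 rose, RGS16, a regulator of G protein signalling, by 1.02 (adjusted p = 0.0278). FOS and JUN differed by 0.28 and 0.39 (adjusted p = 0.811 and 0.43).

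Complement gave 2 rises among 20 components and regulators, and 4 rises and 1 fall with the block. Complement factor B (CFB), the protease of the alternative pathway, had 13.45 and 13.00 in CNT glands and 9.47 and 9.23 in NC glands (rise of 3.88, SE 0.21, adjusted p = 0.00183), and was called in each of the 4 fits without 1 array, but not without cow A or cow B. CD55, which protects host cells from complement, had 10.82 and 8.38 in CNT glands and 5.82 and 5.77 in NC glands (rise of 3.80, SE 0.68, adjusted p = 0.0405). C3, the central component, was at 15.10 and 14.62 in CNT glands and at 15.06 and 14.52 in NC glands (adjusted p = 0.93). C6, of the membrane attack complex, differed by −1.54 (adjusted p = 0.114) and was lower with the cow as a block (adjusted p = 0.0152). The median difference over the list was 0.22.

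Interferon stimulated genes gave more calls with the cow as a block. Of 28 tested, 3 rose, none fell, and 7 rose with the block. Of all genes, 1.82% rose without the block and 4.55% with it. Both CNT values lay above both NC values in 21, against 30.4% of all genes, and the median difference was 0.62. MX1, an antiviral GTPase, had 9.54 and 9.22 in CNT glands and 7.13 and 7.48 in NC glands (rise of 2.07, SE 0.24, adjusted p = 0.0154). PARP14 and PARP9, ADP-ribosyltransferases of interferon signalling, rose by 1.16 and 1.07 (adjusted p = 0.0374 and 0.0386). ISG15, a ubiquitin-like modifier, had 11.43 and 9.59 in CNT glands and 8.27 and 8.28 in NC glands (adjusted p = 0.0768, 0.0325 with the block), with the CNT gland of cow A apart from the others. The list held 0 rises with the CNT array of cow A left out and 11 with that of cow B left out, 0 and 0 with their NC arrays left out, and 0 and 2 with cow A or cow B left out.

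In MHC class I presentation 3 of 14 genes rose. PSMB9 and PSMB10, catalytic subunits of the immunoproteasome, had 9.86 and 10.05 in CNT glands and 8.84 and 8.90 in NC glands (rise of 1.09, adjusted p = 0.0278) and 10.72 and 10.77 in CNT glands and 9.42 and 8.78 in NC glands (rise of 1.64, adjusted p = 0.0278). The chaperone CALR rose by 1.38 (adjusted p = 0.0463), and B2M, the light chain of class I molecules, was at 14.58 and 14.41 in CNT and 14.36 and 14.29 in NC glands (adjusted p = 0.55). In MHC class II presentation 2 of 10 rose, the lysosomal protease LGMN by 1.38 (adjusted p = 0.0278) and the transcription factor RFX5 by 1.13 (adjusted p = 0.0278). The class II chain BOLA-DRA differed by 0.22 (adjusted p = 0.629) and BOLA-DRB3 by 0.03 (adjusted p = 0.969).

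Of 18 genes of leukocyte adhesion and endothelial activation, 1 rose and 5 did with the block. VCAM1, which activated endothelium shows to monocytes and lymphocytes, had 8.22 and 8.07 in CNT glands and 6.69 and 6.65 in NC glands (rise of 1.47, SE 0.16, adjusted p = 0.0141). ICAM1, the ligand of the leukocyte integrins, had 10.26 and 9.87 in CNT glands and 8.18 and 7.66 in NC glands (adjusted p = 0.13), and P-selectin (SELP) differed by 0.93 (adjusted p = 0.0686). The hyaluronan receptor CD44 had 13.09 and 10.70 in CNT glands and 10.71 and 8.83 in NC glands (adjusted p = 0.335), and rose with the block (adjusted p = 0.00438), as its cows differed in both glands alike. Of 13 endothelial markers none was called with or without the block. Their differences ran from −0.47 to 0.32, with PECAM1 at −0.02 and CDH5 at 0.28.

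Among 22 matrix proteases and inhibitors, 2 rose and 8 did with the block. The probe set annotated PLAU, urokinase, had 10.57 and 9.48 in CNT glands and 7.03 and 6.80 in NC glands (rise of 3.11, SE 0.36, adjusted p = 0.0154), and cathepsin C (CTSC), which activates the serine proteases of neutrophil granules, had 14.44 and 13.68 in CNT glands and 11.71 and 11.48 in NC glands (rise of 2.46, SE 0.38, adjusted p = 0.0293). The metalloproteinase inhibitor TIMP1 differed by 1.23 on its more intense probe set (adjusted p = 0.0581) and rose by 1.12 on another (adjusted p = 0.0463). The gelatinase MMP2 differed by −0.53 (adjusted p = 0.177).

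Among 11 eicosanoid genes the call was the largest fall of a named gene, and 2 fell and 1 rose with the block. HPGD, which inactivates prostaglandins, had 8.01 and 7.60 in CNT glands and 12.42 and 10.90 in NC glands (fell by 3.86, SE 0.61, adjusted p = 0.0312), and its other probe set fell by 3.17. It was called in none of the 6 fits that left out 1 array or 1 cow, where its adjusted p ranged from 0.0742 to 0.838. PTGS2, the inducible prostaglandin synthase, had 8.10 and 6.78 in CNT glands and 5.99 and 6.44 in NC glands (adjusted p = 0.282). ALOX5AP, needed for leukotriene synthesis, had 11.11 and 8.80 in CNT glands and 6.69 and 7.31 in NC glands (adjusted p = 0.069, 0.0255 with the block). ALOX15, a lipoxygenase, had 7.71 and 8.76 in CNT glands and 9.75 and 10.13 in NC glands (adjusted p = 0.0568) and fell with the block (adjusted p = 0.00528).

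Several genes of metal binding and redox defence rose. Of 29 tested, 6 rose, none fell, and 12 rose with the block. Both CNT values lay above both NC values in 22, against 30.4% of all genes. SLC11A1, the metal transporter NRAMP1 of phagosomes, had 9.47 and 7.76 in CNT glands and 5.86 and 5.40 in NC glands (rise of 2.98, SE 0.54, adjusted p = 0.0408), and the metallothionein MT1A, which binds zinc and copper, had 14.04 and 13.68 in CNT glands and 11.62 and 10.75 in NC glands (rise of 2.67, SE 0.35, adjusted p = 0.022). Mitochondrial SOD2 was at 15.12 and 14.93 in CNT and 13.93 and 14.09 in NC glands (rise of 1.02, adjusted p = 0.0391). Thioredoxin (TXN) rose by 1.23, the zinc and iron importer SLC39A14 by 1.16 and the ferrireductase STEAP3 by 1.04 (adjusted p = 0.0331, 0.0381 and 0.0278). Cytosolic SOD1 had 12.13 and 11.60 in CNT glands and 12.95 and 12.35 in NC glands (adjusted p = 0.222). The list held 0 rises with the CNT array of cow A left out and 3 with that of cow B left out, 0 and 0 with their NC arrays left out, and 0 and 1 with cow A or cow B left out.

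Of 29 genes of the unfolded protein response and heat shock, 3 rose, and 5 did with the block. Those called without it were CALR, MANF, a secreted factor of endoplasmic reticulum stress, with 12.10 and 12.01 in CNT glands and 10.78 and 10.27 in NC glands (rise of 1.53, SE 0.25, adjusted p = 0.0344), and CRELD2, which rose by 1.24 (adjusted p = 0.0373). The cytosolic heat shock genes HSPA8, HSP90AA1 and HSPD1 differed by −0.27, 0.06 and 0.07. Of 13 glucocorticoid receptor and target genes none was called without the block, and 2 rose and 1 fell with it. These were the metallothionein MT2A and the kinase SGK1, with differences of 1.92 and 1.67, and the transcription factor ZBTB16, with −1.08 (adjusted p = 0.00796, 0.0213 and 0.0152 with the block). The receptor NR3C1 had 8.92 and 9.03 in CNT glands and 10.01 and 9.47 in NC glands (adjusted p = 0.199) and FKBP5 differed by 0.24 (adjusted p = 0.818). Of 16 cell death genes 1 rose, and 4 did with the block. The call was CASP4, an inflammatory caspase, with 11.14 and 10.60 in CNT glands and 9.27 and 8.85 in NC glands (rise of 1.81, SE 0.26, adjusted p = 0.0273). BCL2A1, an inhibitor of apoptosis induced by NF-kB, had a difference of 2.74 (adjusted p = 0.103, 0.0365 with the block).

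Energy metabolism showed few calls. Of 25 glycolysis and hypoxia genes 1 rose and 1 fell, and 4 rose and 1 fell with the block. The calls were PGK1 of glycolysis, which rose by 1.30 (adjusted p = 0.0312), and the monocarboxylate transporter SLC16A1, which fell by 1.01 (adjusted p = 0.0419). SLC16A3, which exports lactate from leukocytes and other glycolytic cells, had 10.86 and 8.12 in CNT glands and 7.31 and 7.19 in NC glands (adjusted p = 0.167, 0.0411 with the block). HIF1A differed by 0.59 (adjusted p = 0.0871). None of 38 genes of the mitochondrial respiratory chain and none of 19 of the tricarboxylic acid cycle was called with or without the block. Their median differences were 0.11 and 0.19, and their single differences ran from −0.22 to 0.89 and from −0.60 to 0.92.

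Genes of milk fat synthesis and secretion held the largest group of falls. Of 39 tested, 6 fell and 1 rose, against 45 falls among all 6720 genes (0.67%), and 8 fell with the block. Both CNT values lay below both NC values in 22, against 22.9% of all genes, and the median difference was −0.35. LPL, the lipase that releases fatty acids from circulating triglycerides, was lower in CNT than in NC glands by 3.13 in cow A and by 1.65 in cow B (mean fall of 2.39, SE 0.45, adjusted p = 0.0442). The fatty acid transporter CD36 had 12.82 and 12.90 in CNT glands and 14.08 and 14.08 in NC glands (fell by 1.22, SE 0.14, adjusted p = 0.0154), with almost equal values in both cows. BTN1A1, the butyrophilin of the milk fat globule, had 13.01 and 13.59 in CNT glands and 14.58 and 14.57 in NC glands (fell by 1.28, SE 0.21, adjusted p = 0.0318). The globule mucin MUC15 fell by 1.16, CIDEA, a regulator of lipid droplets, by 1.23 and GPAT4, an acyltransferase of triglyceride synthesis, by 1.12 (adjusted p = 0.0459, 0.0463 and 0.0339). The member that rose was ACSL5, an acyl-CoA synthetase, with 10.45 and 10.53 in CNT glands and 9.15 and 8.92 in NC glands (rise of 1.46, adjusted p = 0.0331). Fatty acid synthase (FASN) had 12.35 and 13.25 in CNT glands and 14.16 and 14.13 in NC glands (adjusted p = 0.0622) and fell with the block (adjusted p = 0.0231). The droplet protein PLIN2 and the globule protein XDH differed by 0.12 and −0.27 (adjusted p = 0.695 and 0.39), and the desaturase SCD by −0.59 (adjusted p = 0.0842). Among listed genes too low to be tested, DGAT2, ELOVL6 and PPARG had both CNT values above both NC values, and THRSP had both below. The count of falls was 5 without the CNT gland of cow B, 1 without cow B and 0 without the CNT gland of cow A, without either NC gland or without cow A. In the same glands the mean level of the neutrophil markers was higher by 3.65 in cow A and by 2.22 in cow B, and its part in these falls was not tested.

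Of 15 cholesterol synthesis genes none was called with or without the block. HMGCS1, which makes HMG-CoA, and the squalene epoxidase SQLE had differences of 0.28 and 0.57 (adjusted p = 0.822 and 0.129), and FDPS, which makes farnesyl diphosphate, had 10.67 and 10.46 in CNT glands and 9.72 and 9.77 in NC glands (adjusted p = 0.0424), a difference of 0.82 and thus under the fold threshold.

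The milk proteins and lactose synthesis genes, 18 in number, gave no call with or without the block. The casein gene CSN2 had 15.46 and 15.31 in CNT glands and 15.47 and 15.43 in NC glands, CSN3 had 15.37 and 15.36 in CNT glands and 15.40 and 15.35 in NC glands and LALBA, the lactose synthase modifier, had 15.04 and 15.13 in CNT glands and 15.26 and 15.22 in NC glands. The beta-lactoglobulin gene, annotated PAEP, had 15.60 and 15.54 in CNT glands and 15.57 and 15.53 in NC glands. These levels lay near the highest value on the 4 arrays, 15.6, where an array may not resolve a difference. The list's differences ran from −0.58 to 0.63. ELF5, a transcription factor of the secretory epithelium, had 13.84 and 14.31 in CNT glands and 14.65 and 14.66 in NC glands (adjusted p = 0.146), and the prolactin receptor PRLR had 12.26 and 11.56 in CNT glands and 11.32 and 11.28 in NC glands (adjusted p = 0.201).

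**Figure D4:**
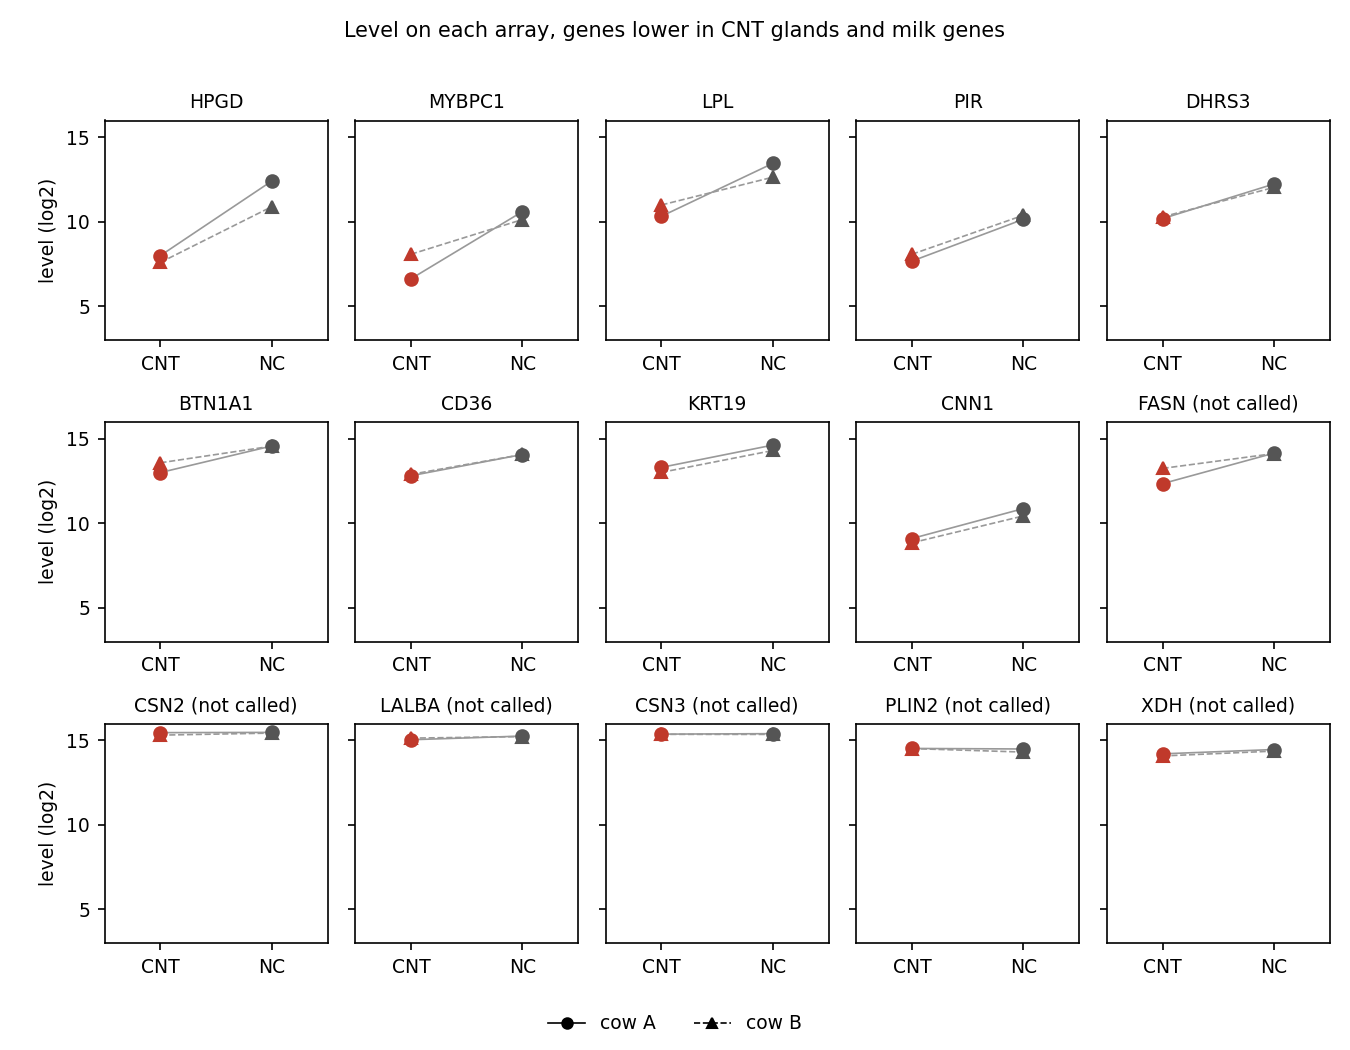
Log2 level (y axis) of 15 genes in the CNT gland (left, red) and the NC gland (right, grey) of cow A (circles, solid lines) and cow B (triangles, dashed lines). The 9 genes before FASN were called lower in CNT glands, by 1.22 for CD36 up to 3.86 for HPGD. FASN and the milk genes of the lowest row were not called.

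Of 11 amino acid transporters 1 rose and 1 fell, and 2 rose and 3 fell with the block. SLC6A14, a transporter of neutral and basic amino acids, had 11.49 and 10.72 in CNT glands and 7.49 and 6.86 in NC glands (rise of 3.93, SE 0.42, adjusted p = 0.0141), and SLC3A2, the heavy chain of the LAT and xCT exchangers, had 10.29 and 10.41 in CNT glands and 11.49 and 11.60 in NC glands (fell by 1.19, SE 0.21, adjusted p = 0.0372). Its partner SLC7A5 had 8.87 and 9.24 in CNT glands and 10.14 and 10.86 in NC glands (adjusted p = 0.0912) and fell with the block (adjusted p = 0.039). Of 23 genes of ion, phosphate and other solute transport 1 fell, and 1 rose and 3 fell with the block. The call was the phosphate transporter SLC20A2, with 6.50 and 6.63 in CNT glands and 7.77 and 8.32 in NC glands (fell by 1.48, SE 0.22, adjusted p = 0.0278). The glucose transporter SLC5A1 differed by −1.09 (adjusted p = 0.124, 0.00535 with the block).

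Luminal epithelial genes gave calls in both directions. Of 23 luminal epithelial and junction genes 2 fell and 1 rose, and 2 fell and 2 rose with the block. Of all genes, 0.67% fell and 1.82% rose, and 1.86% and 4.55% with the block. KRT19, a keratin of luminal cells, had 13.32 and 13.02 in CNT glands and 14.64 and 14.31 in NC glands (fell by 1.31, SE 0.24, adjusted p = 0.0419), and the desmosomal plakophilin PKP2 fell by 1.40 (adjusted p = 0.0238). The epithelial calcium-binding protein S100A2 had 13.94 and 14.04 in CNT glands and 11.95 and 12.22 in NC glands (rise of 1.90, SE 0.22, adjusted p = 0.0154). EPCAM, which defines epithelial cells, had 13.13 and 12.70 in CNT glands and 13.05 and 12.80 in NC glands (adjusted p = 0.997), and the list's median difference was −0.08.

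Myoepithelial and smooth muscle genes had the lowest median of the lists plotted above, −0.62 (−0.60 in cow A and −0.67 in cow B). Of 17, 2 fell and none rose, 3 fell with the block, and both CNT values lay below both NC values in 12, against 22.9% of all genes. MYBPC1, a myosin-binding protein, had 6.63 and 8.08 in CNT glands and 10.61 and 10.14 in NC glands (fell by 3.02, SE 0.45, adjusted p = 0.0278), and calponin (CNN1) had 9.11 and 8.85 in CNT glands and 10.88 and 10.44 in NC glands (fell by 1.68, SE 0.31, adjusted p = 0.0419). Smooth muscle actin (ACTA2) had 11.58 and 10.96 in CNT glands and 12.06 and 11.72 in NC glands (adjusted p = 0.262), and the basal keratin KRT5 differed by 0.03 (adjusted p = 0.956). MYBPC1 was called in 2 of the 6 fits that left out 1 array or 1 cow and CNN1 in none.

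Of 23 fibroblast markers and matrix genes 1 fell, and 3 fell and 1 rose with the block. The call was osteoglycin (OGN), a small proteoglycan, with 6.03 and 5.78 in CNT glands and 7.95 and 7.15 in NC glands (fell by 1.64, SE 0.31, adjusted p = 0.0463). The related proteoglycans LUM and DCN differed by −1.73 and −1.26 (adjusted p = 0.153 and 0.11) and fell with the block (adjusted p = 0.0027 and 0.00837). Fibronectin (FN1) had 11.23 and 9.96 in CNT glands and 8.82 and 8.11 in NC glands (adjusted p = 0.0973) and rose with the block (adjusted p = 0.00194). The collagens COL1A1, COL1A2 and COL3A1 differed by −0.30, −0.18 and −0.25. Of 6 adipocyte markers, CIDEA fell and RETN rose, both also members of other lists, and 2 fell and 1 rose with the block. FABP4 of this list had 10.68 and 10.15 in CNT glands and 11.53 and 9.93 in NC glands (adjusted p = 0.804). The markers ADIPOQ, LEP and CIDEC did not pass the filter. ADIPOQ had 4.60 and 4.61 in CNT glands and 4.50 and 4.75 in NC glands. The single markers of red cells (GYPC) and mast cells (KIT) differed by −0.38 and −0.25, and neither was called.

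Of 12 cell cycle genes 2 fell and none rose, and 1 rose with the block. CDK1, the kinase of mitotic entry, had 7.24 and 7.38 in CNT glands and 8.83 and 8.23 in NC glands (fell by 1.22, SE 0.22, adjusted p = 0.0419), and the condensin subunit NCAPH had 7.32 and 8.36 in CNT glands and 10.41 and 10.09 in NC glands (fell by 2.41, SE 0.33, adjusted p = 0.0262). The condensin subunit NCAPG differed by 1.15 (adjusted p = 0.11) and rose with the block (adjusted p = 0.0074). Cyclins and most other mitotic genes of the list were too low to be tested, and 12 of 36 listed genes were. The replication genes MCM3, MCM6 and PCNA differed by 0.41, 0.33 and 0.32, and none was called.

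Among the largest changes outside these lists were genes of varied function. TGM3, a transglutaminase of epithelia, had 10.13 and 7.43 in CNT glands and 5.06 and 4.64 in NC glands (rise of 3.93, SE 0.75, adjusted p = 0.0463). NFE2, a transcription factor of the erythroid and megakaryocytic lineages, rose by 3.89 (adjusted p = 0.0233), and SRGN, the proteoglycan of leukocyte granules, by 3.73 (adjusted p = 0.0312). RUBCNL, a regulator of autophagy, had 10.56 and 8.39 in CNT glands and 4.37 and 3.94 in NC glands (rise of 5.32, adjusted p = 0.0154), with the CNT gland of cow A highest. Downwards, PIR, a nuclear iron-binding protein, had 7.68 and 8.09 in CNT glands and 10.16 and 10.39 in NC glands (fell by 2.39, SE 0.19, adjusted p = 0.00532), and DHRS3, which reduces retinal to retinol, had 10.19 and 10.29 in CNT glands and 12.24 and 12.04 in NC glands (fell by 1.90, SE 0.16, adjusted p = 0.00671). GALM, the mutarotase of galactose, fell by 2.35, PPM1K, the phosphatase that activates breakdown of branched-chain amino acids, by 1.62, and the imprinted gene PEG3 by 1.53 (adjusted p = 0.0289, 0.022 and 0.0405). PHYHIPL had 6.11 and 6.26 in CNT glands and 9.41 and 9.98 in NC glands (fell by 3.51, adjusted p = 0.0278). UXT and MRPL39, housekeeping genes in qPCR of this tissue, differed by 0.01 and −0.24 (adjusted p = 0.984 and 0.583). Of the 311 calls, 110 had no single gene symbol, among them a probe set that fell by 4.55, the largest fall of all.

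Across the 13004 probe sets the differences of the cows correlated with r = 0.738, as a description over probe sets, which are not independent. Cow A had the larger rise in 159 of the 211 probe sets called higher and the larger fall in 76 of the 100 called lower. The median rise of those called higher was 1.83 in cow A and 1.54 in cow B, and the median of those called lower was −1.59 and −1.29. Several genes of neutrophils and defensins had a wide gap: CXCR1 differed by 6.99 in cow A and by 4.71 in cow B, DEFB10 by 5.96 and 3.34, and NCF1 by 5.48 and 3.30. HP differed by 6.96 and 6.51, CFB by 3.98 and 3.77, and CXCL5, larger in cow B, by 3.01 and 3.94. With 1 gland per group and cow, this gap was not tested.

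**Figure D5:**
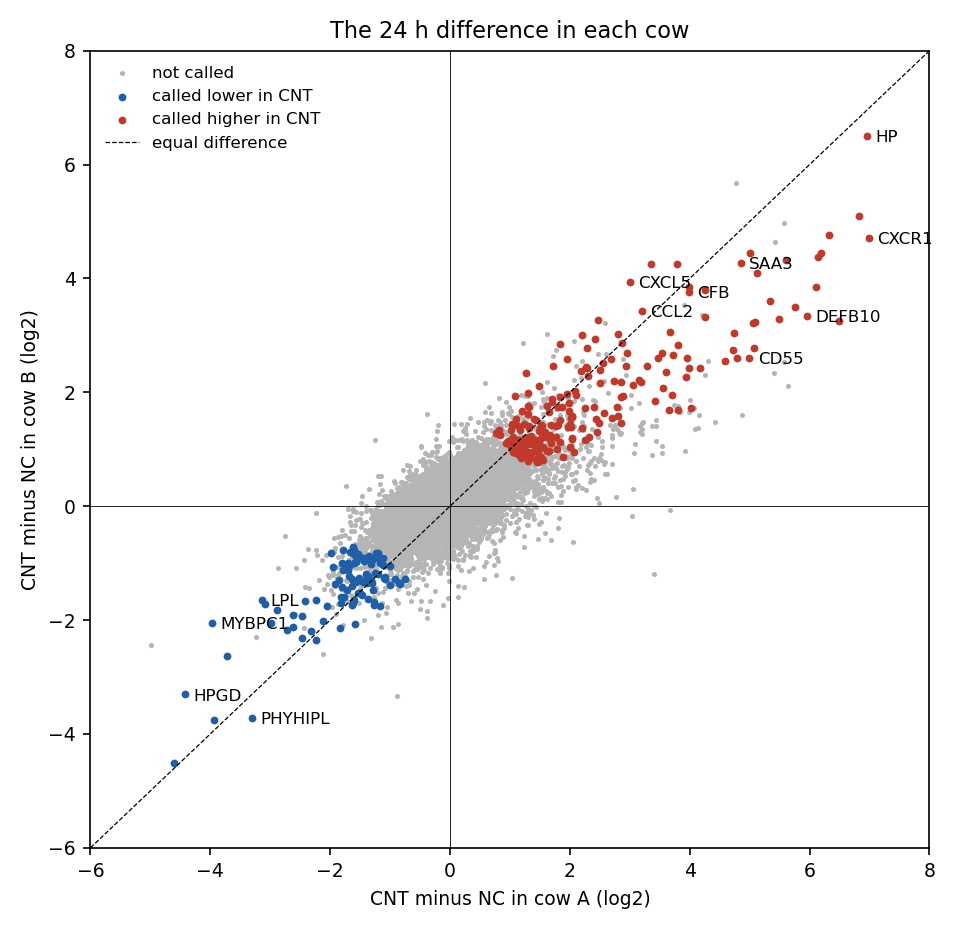
Difference between the CNT and the NC gland at 24 h in cow A (x axis, log2) against that in cow B (y axis, log2) for the 13004 probe sets tested. Red and blue points are called higher and lower in CNT glands, and on the dashed line both cows differ equally. Most red points lie right of that line, with 159 of 211 larger in cow A, while CXCL5 and CCL2 lie above it.

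The glands of 48 h came from 3 other cows. Of the 311 probe sets called at 24 h, 236 had the same sign in all 3 cows sampled at 48 h and 4 the opposite sign in all 3. These shares were not counted over all probe sets, so the 2 counts have no background to be read against. The mean rise was larger at 24 h for 181 of the 211 called higher, and the mean fall for 84 of the 100 called lower, where these probe sets were selected on the 24 h values. The difference between the times, tested with limma over the 20 arrays together for 13873 probe sets, gave 0 calls (0%), with 1077 at an unadjusted p under 0.05, and 27 calls with the cow as a block. HP differed between CNT and NC glands by 6.73 at 24 h and by 6.22 at 48 h, and CXCR1 by 5.85 and 3.77. DEFB10 differed by 4.65 at 24 h and 1.16 at 48 h, PTX3 by 2.87 and 0.25, and LBP, larger at the later time, by 1.65 and 4.23. The adjusted p of these 5 differences between the times was at least 0.184 without the block. With the block PTX3 passed (adjusted p = 0.0487), and the other 4 had an adjusted p of at least 0.0539.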

How the data were processed

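RNA of mammary tissue was hybridised to the GeneChip Bovine Genome Array, 1 array per gland. The authors deposited log2 values from RMA (background correction, quantile normalization, summary per probe set) in the affy package, whose version was not given in the sources used here. Whether both time points were normalized together was not given either, so levels at 24 h and 48 h were compared only as differences between glands of a cow. The labels place the biopsies in the cisternal region and the study's methods in the parenchyma, and the region was the same for both groups.

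Of 24128 probe sets, 112 controls were left out. The platform annotation named a single gene for 13318 probe sets and more than 1 for 86, and left 10724 without a symbol. The 13004 probe sets that exceeded the array median on at least 2 of the 8 arrays of 24 h were tested, and 8421 of these have 1 symbol (6720 genes).

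The 4 groups of 24 h (CNT, CF, CFPD and NC) were fitted with limma 3.58.1 in R 4.3.3 and shared the spread, with 4 residual degrees of freedom to which the prior added 3.05. Only CNT minus NC was read. The SE is that of the moderated variance, and p-values were adjusted by Benjamini-Hochberg over all probe sets tested. A call needed an adjusted p under 0.05 and a difference of at least 1. The study's methods name no term for the cow. A fit with the cow as a block was an alternative. Because CNT and NC glands came from the same animals, the cow numbers pair the arrays. Arrays of the same cow also deviated together from their group means (r of 0.332 to 0.706 over probe sets). The cows number 2, which limits the precision of every value. In the main fit a p-value sets the difference against the spread between cows within the 4 groups of 24 h. The CF and CFPD glands are part of that spread.

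The genes and lists were chosen with earlier results of these data known. Named were the 20 largest rises and the 15 largest falls with 1 symbol, up to 6 called members of each list, else up to 4 with the highest levels, genes of the study's qPCR, and defining markers of cell types. Other named genes were chosen for their role or after their values were seen. A list is represented for each gene by its most intense probe set. Alternatives changed the block, the arrays fitted, the filter, the prior, the normalization, the threshold and the CF and CFPD labels of 1 cow, and left out single arrays or cows. Fits that left out a cow held the arrays of both times.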

Additional observations from a re-analysis of the deposited data

Results flagged for a closer look

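SLC3A2, the heavy chain of amino acid exchangers, differed between CNT and NC glands in opposite directions at the 2 times. At 24 h it was lower in both CNT glands, by −1.20 in cow A and −1.18 in cow B, and at 48 h it was higher in the CNT glands of all 3 other cows, by 0.69, 0.45 and 0.66. The difference between the times was −1.79 (SE 0.30), which did not pass in limma without the block (adjusted p = 0.0880) and passed with the cow as a block (adjusted p = 0.0185). Single outlying glands were not tested for, since a group held 2 glands at 24 h and 3 at 48 h.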

How the results depend on the processing

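The 311 calls (211 higher, 100 lower) were 793 (518 and 275) with the cow as a replicate block, 867 (580 and 287) with that block in the 4 CNT and NC arrays alone, and 147 (110 and 37) in those 4 arrays without it. They were 177 (130 and 47) with 1 probe set per gene symbol, where fewer probe sets were tested, and 17 (12 and 5) at an adjusted p under 0.01. With 1 array or 1 cow left out, the counts ranged from 3 to 483, with 3 to 373 higher and 0 to 110 lower. The 311 calls kept their sign in all 6 of these fits. This is no sign of stability, since their CNT and NC values did not overlap and no such fit could change a sign. In the other alternatives (all 20 arrays, exchanged CF and CFPD labels, no filter, a filter on the mean, trended and robust prior, quantile normalization, centring, no minimum fold) the counts lay between 238 and 366. The genes called were not the same throughout. In limma over the 20 arrays, as fitted for the time comparison, LBP and DHRS3 did not pass at 24 h (adjusted p = 0.247 and 0.326). CXCL2 and CXCL8 passed there (adjusted p = 0.0265 and 0.0298). The difference between 24 h and 48 h gave 0 calls, 27 with the cow as a replicate block, 1 without a filter and 0 to 11 with 1 cow left out. Of the values of named genes under all alternatives, 593 no longer passed, 57 newly passed and 0 turned their direction where the gene was called, while 100 values of genes called in neither fit changed sign. The causes of these changes were not tested. Levels near 15.6, such as those of milk protein genes, may lie where the array no longer resolves a difference.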
